A study of Rattus norvegicus with 44 samples.

Results

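The livers of male Wistar rats given the compound R1 at 100 mg/kg/day for 336 h were compared with the livers of rats given the vehicle alone. The comparison was chosen by label from the second of 4 studies: the 4 arrays labelled R1 at dose 100 were set against the 4 vehicle control arrays of that study, 8 of the 44 arrays of the series. The rats were 8 weeks old, were gavaged once a day with the compound or with its vehicle (citric acid buffer), and were killed 24 h after the last dose. Both groups are of the same strain, sex and age, and the labels name no genetic change. R1 is known here by its code name only. A slice of the left lateral lobe was kept in RNAlater, and its RNA was hybridized as biotinylated cRNA to an Affymetrix rat expression array, 1 array per sample. Other arrays serve only as points of reference: 5 arrays at 20 mg/kg/day of R1 from the same study, 3 at 100 mg/kg/day and 3 of vehicle after 24 h from study 1, and 5 of vehicle after 336 h from study 3. The labels number the replicates without saying how they arose, so a p-value here speaks only of the scatter among arrays, part of which may be technical.

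The liver makes cholesterol from acetyl-CoA through mevalonate and squalene, and the enzymes of that route are switched together by transcription factors that respond to low sterol. It burns fatty acids in mitochondria and peroxisomes with enzymes that are targets of the receptor PPAR-alpha. Foreign compounds are met by enzymes and transporters under the receptors CAR and PXR, and reactive compounds by glutathione-related genes under NRF2.

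Signals are the deposited intensities in arbitrary units, put by the authors on 1 common scale for all 44 arrays, so a level is relative to the rest of its array and probe sets are not compared with each other. Each difference is a log2 fold change with its SE after ±, fitted by limma to log2(signal + 2.888), an offset that understates the change of dim genes. Adjusted p-values follow Benjamini and Hochberg, a gene counts as called below 0.05, and "rose" and "fell" are used of called genes only. The test called 656 of 6361 probe sets (10.3%), 325 higher (5.11%) and 331 lower (5.2%) in the R1 arrays. By gene, with 1 probe set each, 368 of 3696 were called (9.96%), 183 higher (4.95%) and 185 lower (5.01%), and the median log2 fold change over all genes was -0.02. The 4 R1 and 4 vehicle values did not overlap in 319 of the called genes and in 538 of all genes (14.6%). Of the called genes, 34 rose by more than 2 and 22 fell by more than 2 on the log2 scale. Correlation between arrays of a group was 0.963 to 0.974 in vehicle and 0.938 to 0.954 with R1. Estimated array weights, lower for arrays that scatter more, were 1.007 to 1.776 in vehicle and 0.591 to 0.826 with R1. Each SE rests on a spread pooled over all 44 arrays, so it may be too small for the R1 arrays.

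The liver label was checked first. Of 9 tested hepatocyte markers 2 rose, 1 fell and 6 were not called, and their summed signal was 48831 to 53019 in vehicle and 48719 to 53661 with R1. Alb, albumin, read 12597, 12597, 12071 and 12071 in vehicle and 12071, 12071, 10952 and 8854 with R1 (-0.18 ± 0.10, adjusted p = 0.301), near the top of the common scale. The tissue is bulk liver, so fewer cells of a type and less RNA per cell cannot be told apart. A second point bears on what follows: the vehicle arrays of study 2 differed from those of study 3, at the same time after dosing, in 1135 of 6361 probe sets (17.8%) and in 616 of 3696 genes (16.7%; 298 higher, 8.06%, and 318 lower, 8.6%). For genes named here whose call ended or whose direction turned against the study 3 vehicle, that value is therefore given beside the result, as a comparison chosen after the data were seen, in which study and treatment cannot be told apart. Against that vehicle, R1 at 100 mg/kg/day was called different in 890 genes (24.1%; 410 higher, 11.1%, and 480 lower, 13%), and in 24.9% of probe sets. Comparisons that share the R1 arrays or the vehicle arrays are not independent of each other.

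Genes of cholesterol synthesis had the highest median log2 fold change of the lists with 7 or more tested genes. Of 14 tested genes 13 rose and 0 fell, with a median of 3.24 against -0.02 over all genes, and in all 14 the vehicle and R1 arrays did not overlap. At the start of the route, Acat2, an acetoacetyl-CoA thiolase, read 1.16, 5.90, 9.49 and 6.34 in the 4 vehicle arrays and 1263, 323, 912 and 780.4 in the 4 R1 arrays (6.53 ± 0.34, adjusted p = 1.03e-18). The vehicle arrays of Acat2 lay below or at about 9.17, the filter level that some group mean had to reach for a probe set to be tested, so the size of this rise is uncertain while the separation is not. Idi1, isopentenyl-diphosphate isomerase, read 29.8, 60.6, 54.3 and 44.4 in vehicle and 3958, 1406, 1709.7 and 1340.1 with R1 (5.28 ± 0.32, adjusted p = 5.15e-17). Its lowest R1 array lay more than 20 times above its highest vehicle array. The other enzymes before squalene rose too: Mvd, mevalonate diphosphate decarboxylase (3.67 ± 0.35), Fdps, farnesyl diphosphate synthase (3.26 ± 0.22), Fdft1, squalene synthase (3.30 ± 0.20), and Mvk, mevalonate kinase (1.85 ± 0.22).

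Past squalene, Sqle, squalene epoxidase, read 18.3, 24.1, 33.8 and 21.6 in vehicle and 1099, 437, 566 and 644 with R1 (4.60 ± 0.32, adjusted p = 2.15e-15). The sterol methyl oxidase Msmo1 read 81.7, 81.1, 124 and 113 in vehicle and 2639, 1422, 2186 and 2037 with R1 (4.33 ± 0.21, adjusted p = 1.85e-19). In both genes every R1 array was above every vehicle array, and R1 replicate 2 was the lowest R1 array in 12 of the 14 genes of the route. Cyp51, lanosterol demethylase (3.22 ± 0.21), Lss, lanosterol synthase (2.71 ± 0.21), Dhcr7, the last reductase (2.19 ± 0.33), Ebp (2.05 ± 0.22) and Hsd17b7 (1.83 ± 0.27) rose less. Nsdhl was the 1 member not called, at 184 to 206 in vehicle and 209 to 430.0 with R1 (0.54 ± 0.21, adjusted p = 0.108). Insig1, which holds the sterol-sensing complex in the endoplasmic reticulum and is itself induced with it, rose from 215, 270.3, 179 and 229 to 1244, 1119, 779 and 1088 (2.22 ± 0.28, adjusted p = 4.46e-08).

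**Figure D1:**
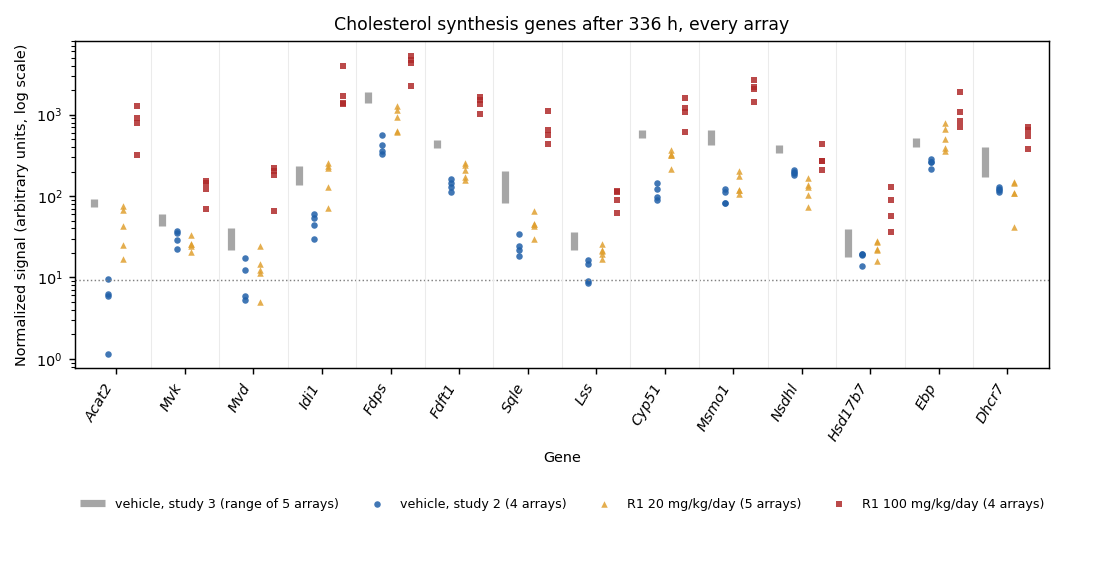
Normalized signal (log scale) of the 14 tested cholesterol synthesis genes in every array of study 2 after 336 h (circles vehicle, triangles R1 20 mg/kg/day, squares R1 100 mg/kg/day) and the range of the 5 vehicle arrays of study 3 (grey bars). The dotted line is the filter level of 9.17. The squares lie above the circles in all 14 genes, and the grey bars lie above the circles in most of them.

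The 2 vehicle groups differed in this route: 13 of the 14 genes were lower in the study 2 vehicle than in that of study 3. For Acat2 the study 3 vehicle read 72.5 to 91.4, for Idi1 136 to 236, for Sqle 83.1 to 200.5 and for Msmo1 426 to 646. Against that vehicle 13 of 14 genes were still called higher at 100 mg/kg/day, with a median log2 fold change of 1.47. Insig1 was not called against it (0.17 ± 0.26, adjusted p = 0.694). At 20 mg/kg/day in the same study Idi1 read 71.3 to 256, Sqle 29.9 to 65.4 and Msmo1 107 to 206, nearer to the vehicle of that study than to 100 mg/kg/day. Against the study 2 vehicle Acat2 was nevertheless called higher at 20 mg/kg/day (2.41 ± 0.33, adjusted p = 7.69e-07). So were Cyp51 (1.42 ± 0.20, adjusted p = 1.18e-06) and Fdps (1.10 ± 0.21, adjusted p = 0.000337), while Fdft1 was not (0.57 ± 0.19, adjusted p = 0.0845). All 14 genes were higher at 100 than at 20 mg/kg/day (median log2 difference 2.29), where 2.03% of all genes were called higher.

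After 24 h at the same dose in study 1 these 4 genes had also risen against their own vehicle, with log2 fold changes of 4.75 ± 0.37 for Idi1, 4.42 ± 0.40 for Acat2, 3.94 ± 0.36 for Sqle and 2.70 ± 0.25 for Msmo1. The effect at 336 h was greater than at 24 h in 4 of 14 genes, where 2.57% of all genes were called greater: Acat2 (2.11 ± 0.52, adjusted p = 0.00902), Msmo1 (1.63 ± 0.33, adjusted p = 0.000955), Fdps (1.34 ± 0.34, adjusted p = 0.00932) and Fdft1 (1.11 ± 0.31, adjusted p = 0.0229). The call for Fdft1 ended on leaving out array 2 of R1 at 24 h, or 1 or 2 of vehicle at 24 h, or 1 of vehicle (highest adjusted p 0.0774). Mean R1 signals at 336 h and 24 h were 820 and 1733 for Acat2, and 4136 and 6615 for Fdps. They were 1376 and 2589 for Fdft1. Mean vehicle signals of study 2 and study 1 were 5.72 and 80.05 for Acat2, and 416 and 1748 for Fdps. They were 136 and 566 for Fdft1. In these genes the greater effect thus came with a lower vehicle level and not with a higher R1 level. In this and every comparison of the 2 times, time and study cannot be told apart.

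Fatty acid synthesis draws on the same acetyl-CoA, and its list split. Of 14 tested genes 4 rose and 2 fell, with a median of -0.16. Fasn, fatty acid synthase, read 15.4, 17.6, 16.1 and 15.00 in vehicle and 121, 63.2, 113 and 136 with R1 (2.51 ± 0.32, adjusted p = 8.59e-08). Acly, ATP citrate lyase, which supplies cytosolic acetyl-CoA, read 97.99, 133, 103 and 104 in vehicle and 1022, 426, 620.3 and 414 with R1 (2.38 ± 0.30, adjusted p = 6.8e-08). Both were separated by more than a factor of 3 in every array, but the study 3 vehicle read 46.8 to 85.8 for Fasn and 459.7 to 706 for Acly, and neither was called against it (0.59 ± 0.31, adjusted p = 0.163, and -0.01 ± 0.29, adjusted p = 0.986). The rises of Me1, malic enzyme (1.77 ± 0.37), and Acsl3, an acyl-CoA synthetase (1.67 ± 0.24), were called against both vehicles. The elongase Elovl5 fell (-1.05 ± 0.21, adjusted p = 0.000264), as did Acsl1 (-0.83 ± 0.20, adjusted p = 0.00359). Scd, the stearoyl-CoA desaturase, read 127, 87.3, 483 and 172 in vehicle and 227, 19.1, 72.1 and 92.2 with R1, overlapping, and was not called (-1.20 ± 0.48, adjusted p = 0.118).

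Fatty acid oxidation moved the other way. Of 32 tested genes of this list, which holds known PPAR-alpha targets, 24 fell, 1 rose and 7 were not called, and the median log2 fold change of -1.40 was the lowest of the lists with 7 or more tested genes. In mitochondria, Cpt1a, which commits fatty acids to entry, read 1437, 1254, 1527 and 1496 in vehicle and 344, 302, 176 and 143 with R1 (-2.64 ± 0.28, adjusted p = 8.37e-10). Eci1, an enoyl-CoA isomerase, read 4802, 4766, 4045 and 4455 in vehicle and 506, 416, 685 and 515 with R1 (-3.10 ± 0.19, adjusted p = 1.23e-16). In both genes the lowest vehicle array was more than 3 times the highest R1 array. The carnitine carrier Slc25a20 (-1.66 ± 0.18), the dehydrogenases Acadm (-1.45 ± 0.24) and Acadvl (-1.04 ± 0.22), and both chains of the trifunctional protein, Hadhb (-1.52 ± 0.22) and Hadha (-0.78 ± 0.16), fell by less. For Eci1, 2 of its 3 probe sets were called.

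Of the peroxisomal genes, Ehhadh, the bifunctional enzyme, read 1276, 1781, 1617 and 1623 in vehicle and 140.5, 223, 146 and 242 with R1 (-3.08 ± 0.24, adjusted p = 6.57e-14). Ech1, a dienoyl-CoA isomerase, read 3628, 3753, 4861 and 3934 in vehicle and 588, 662, 486 and 535 with R1 (-2.83 ± 0.16, adjusted p = 3.19e-18). Neither overlapped between groups. Pex11a, a peroxisome proliferation factor (-2.34 ± 0.25), Crot, which makes acylcarnitines in peroxisomes (-1.98 ± 0.30), Decr2 (-1.92 ± 0.25) and Acaa1b, a peroxisomal thiolase (-1.82 ± 0.30), fell as well. Outside the list, Hacl1, which shortens branched fatty acids in peroxisomes, fell from 679.9, 814, 735 and 830.2 to 239, 168, 97.03 and 162 (-2.24 ± 0.31, adjusted p = 5.15e-07), and Ephx2, soluble epoxide hydrolase, from 262, 312, 279.7 and 405 to 13.8, 71.1, 58.98 and 119 (-2.51 ± 0.30, adjusted p = 1.63e-08).

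The thioesterase Acot1 read 89.1, 91.7, 133 and 117 in vehicle and 0.403, 1.44, 5.54 and 0.601 with R1 (-4.59 ± 0.44, adjusted p = 3.71e-11). All 4 R1 arrays lay below the filter level, so the size of the fall is uncertain. The fatty acid omega-hydroxylase Cyp4a1 read 2442, 2653, 2521 and 2521 in vehicle and 195, 506, 249 and 215 with R1 (-3.22 ± 0.41, adjusted p = 5.36e-08). Acot1, its near relative Acot2 (-3.45 ± 0.57) and the Cyp4a genes belong to families of near-identical members that can share signal on the array, so the values are uncertain as to the member. Fabp1, the main fatty acid binding protein of hepatocytes, fell (-1.26 ± 0.17, adjusted p = 3.37e-07), and the scavenger receptor Cd36 fell from a dim level (-1.33 ± 0.43, adjusted p = 0.0356) in 1 of its 2 probe sets. That call ended on leaving out array 1, 2, 3 or 4 of R1, or 2, 3 or 4 of vehicle (highest adjusted p 0.166), with weighted arrays, with the replicate number as a block and in a fit of the arrays of study 2 alone. The 1 rise was that of Pdk2, a kinase that restrains pyruvate dehydrogenase (0.67 ± 0.18, adjusted p = 0.00656). Ppara itself was dim, at 5.75 to 14.3 in vehicle and 11.4 to 15.1 with R1 (0.27 ± 0.41, adjusted p = 0.81).

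**Figure D2:**
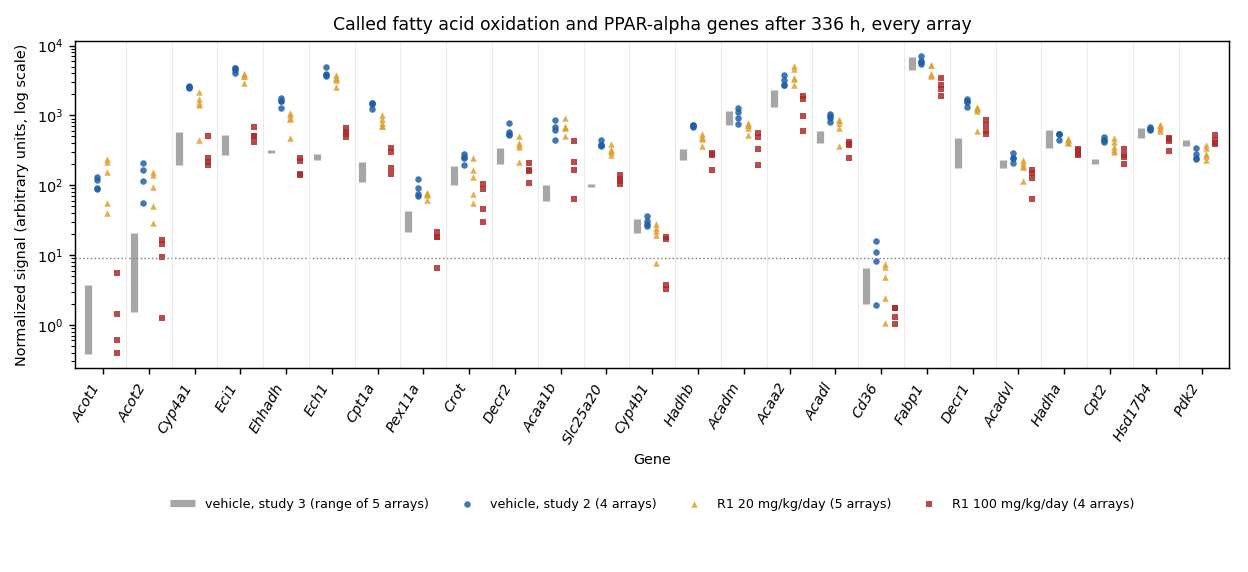
Normalized signal (log scale) of the 25 called genes of the fatty acid oxidation and PPAR-alpha list in every array of study 2 after 336 h, ordered by log2 fold change, with circles for vehicle, triangles for R1 20 mg/kg/day, squares for R1 100 mg/kg/day, grey bars for the range of the 5 study 3 vehicle arrays and a dotted line at the filter level of 9.17. In Cpt1a, Eci1, Ech1 and Acot1 the squares and the grey bars lie well below the circles and triangles.

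The vehicle groups differed in these genes too. In the study 2 vehicle 17 of the 32 genes were higher and 3 lower than in the study 3 vehicle, which read 110.0 to 218 for Cpt1a, 271 to 526 for Eci1, 232 to 283 for Ech1 and 0.390 to 3.77 for Acot1. Against the study 3 vehicle 14 genes were called lower and 4 higher at 100 mg/kg/day, and the median log2 fold change was -0.55. The direction turned for Cpt1a (0.65 ± 0.27, adjusted p = 0.0717), Eci1 (0.49 ± 0.18, adjusted p = 0.0453), Ech1 (1.17 ± 0.15, adjusted p = 8.31e-08), Acot1 (0.05 ± 0.42, adjusted p = 0.947), Acot2 (0.32 ± 0.54, adjusted p = 0.724), Slc25a20 (0.26 ± 0.17, adjusted p = 0.288) and Acaa1b (1.20 ± 0.29, adjusted p = 0.0016). Hadhb (-0.27 ± 0.21, adjusted p = 0.377), Cd36 (-0.80 ± 0.40, adjusted p = 0.148), Pdk2 (0.15 ± 0.17, adjusted p = 0.548), Cyp4a1 (-0.35 ± 0.39, adjusted p = 0.556) and Hacl1 (-0.11 ± 0.30, adjusted p = 0.838) kept their direction and were not called, whereas Ehhadh (-0.72 ± 0.22, adjusted p = 0.0153), Fabp1 (-1.14 ± 0.16, adjusted p = 9.39e-07), Acadm (-1.50 ± 0.23, adjusted p = 2.76e-06) and Pex11a (-0.96 ± 0.24, adjusted p = 0.00217) were called lower against both vehicles.

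Within study 2 the 20 mg/kg/day arrays read 712 to 1019 for Cpt1a, 2902 to 3902 for Eci1, 2539 to 3799 for Ech1 and 40.3 to 236 for Acot1, and none of these 4 genes was called different from vehicle. Ehhadh was called lower than vehicle at that dose (-0.88 ± 0.22, adjusted p = 0.0125). Acot2 (-0.60 ± 0.54, adjusted p = 0.687) and Cyp4a1 (-0.97 ± 0.39, adjusted p = 0.179) were not called there. Of the 32 genes 20 were lower and 1 higher at 100 than at 20 mg/kg/day (median -0.94), where 1.81% of all genes were called lower. After 24 h in study 1, 3 of the 32 genes were called higher than their own vehicle and 2 lower (median 0.25), where the background over all genes was 6.01% (3.22% higher and 2.79% lower), and 6.4% by probe set. The 3 higher were Acot2 (2.95 ± 0.66, adjusted p = 0.00251), Eci1 (1.31 ± 0.22, adjusted p = 6.59e-05) and Ech1 (0.99 ± 0.18, adjusted p = 0.000194), each of them lower after 336 h. The 2 lower were the peroxisomal oxidase Acox2 (-1.12 ± 0.26, adjusted p = 0.00359) and Pdk2 (-0.76 ± 0.20, adjusted p = 0.0125), whose call ended on leaving out array 2 or 3 of R1 at 24 h, or 1 or 2 of vehicle at 24 h (highest adjusted p 0.104). Hacl1, outside the list, was also called higher at 24 h (1.24 ± 0.36, adjusted p = 0.027), a call that ended on leaving out array 1 or 2 of R1 at 24 h, or 2 or 3 of vehicle at 24 h (highest adjusted p 0.159). Cpt1a (0.58 ± 0.32), Ehhadh (-0.05 ± 0.27) and Cyp4a1 (0.29 ± 0.47) were not called at that time. The effect at 336 h was lower than at 24 h in 22 of 32 genes and higher in 1 (median difference -1.57), where 2.49% of all genes were called lower. The 24 h vehicle of study 1 read 235 to 430.0 for Cpt1a and 331 to 499.9 for Eci1. It read 348 to 449.7 for Ech1 and 0.359 to 4.90 for Acot1, and all of these lay far below the study 2 vehicle. With R1 at 24 h the same genes read 323 to 613, 848 to 1391, 636 to 1054 and 0.640 to 3.27. Mean R1 signals at 336 h and 24 h were 241 and 469 for Cpt1a, 531 and 1090 for Eci1, and 568 and 781 for Ech1. For Acot1 they were 2.00 and 1.64, both below the filter level. The lower effect in these genes thus came with a higher vehicle level in study 2. In Cpt1a, Eci1 and Ech1, but not in Acot1, it came with a lower R1 level as well.

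Genes that hold, release and carry lipid followed in part. Of 12 tested lipid droplet and lipase genes 5 fell and 2 rose (median -0.34). Plin2, the main coat protein of lipid droplets in liver, read 1123, 881, 917 and 1225 in vehicle and 211, 113, 241 and 212 with R1 (-2.44 ± 0.24, adjusted p = 9.03e-11). Plin2 did not overlap between groups and was lower against the study 3 vehicle too (-2.02 ± 0.23, adjusted p = 4.71e-09). Mgll, monoacylglycerol lipase (-1.30 ± 0.28), the lipase inhibitor G0s2 (-1.29 ± 0.31) and the carboxylesterase Ces1d (-1.20 ± 0.34) fell, but Mgll and Ces1d were not called against that vehicle (-0.53 ± 0.27, adjusted p = 0.152, and -0.20 ± 0.33, adjusted p = 0.702). The 2 rises were fatty acid binding proteins of other tissues. Fabp5 read 105, 129, 82.96 and 83.3 in vehicle and 432, 321, 591 and 452 with R1 (2.12 ± 0.34, adjusted p = 6.36e-06). Fabp4, the binding protein of fat cells and macrophages, read 1.41, 1.84, 2.14 and 1.70 in vehicle and 61.3, 60.03, 11.6 and 45.2 with R1 (3.14 ± 0.45, adjusted p = 9.11e-07), with all vehicle arrays below the filter level. Among the groups compared here only R1 at 100 mg/kg/day after 336 h reached that level (mean 44.5), so the filter may have favoured a rise. Fabp4 was the 1 of 5 tested fat cell markers to be called, and the summed signal of those markers was 131 to 185 in vehicle and 115 to 245 with R1. The part of fat cells in that rise was not tested.

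Of 13 apolipoprotein and lipoprotein genes 6 fell and 1 rose (median -0.39). Apoa4, a minor apolipoprotein of liver and gut, read 897, 889, 801 and 909 in vehicle and 162, 148, 134 and 111 with R1 (-2.64 ± 0.40, adjusted p = 2.91e-06). The 20 mg/kg/day arrays read 99.2 to 149, the range of the arrays at 100 mg/kg/day, with a difference of 0.05 ± 0.38, adjusted p = 0.979. Lcat, which esterifies cholesterol in plasma lipoproteins, fell from 1730.4, 1753, 1841 and 1452 to 879, 844, 951 and 719.6 (-0.997 ± 0.14, adjusted p = 3.1e-07). Apoa1 was the 1 rise (0.43 ± 0.13, adjusted p = 0.0242), and its groups overlapped. Its call ended on leaving out array 1 or 3 of R1, or 2 or 3 of vehicle (highest adjusted p 0.134), without a mean-variance trend and in a fit of study 2 alone. Of the falls, that of Apoc4 (-0.79 ± 0.23, adjusted p = 0.0159) ended on leaving out array 2 of R1, or 3 of vehicle (highest adjusted p 0.0688) and against the study 3 vehicle (0.03 ± 0.22, adjusted p = 0.933), and that of Apoc3 (-0.43 ± 0.11, adjusted p = 0.00429) with the replicate block and in a fit of study 2 alone. Pon1, the plasma paraoxonase, overlapped, and its fall (-0.54 ± 0.18, adjusted p = 0.0377) ended on leaving out array 1 or 2 of R1, or 1, 2, 3 or 4 of vehicle (highest adjusted p 0.324), with no filter, without the trend and in a fit of study 2 alone.

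Drug-metabolizing genes rose. Of 20 tested CAR and PXR targets 9 rose, 1 fell and 10 were not called (median 0.75). Cyp3a23-3a1, a main drug oxidase of rat liver, read 1279, 1379.9, 1025 and 2197 in vehicle and 12597, 12597, 11270.4 and 12071 with R1 (3.10 ± 0.17, adjusted p = 3.19e-18). The R1 values sit at the upper end of the shared scale, where only the rank of a probe set counts and a fold change is held down, and members of the Cyp3a, Cyp2b, Ugt and Gsta families can share signal. Cyp3a18 (1.66 ± 0.21), Cyp2b2 (1.94 ± 0.30), Ephx1, microsomal epoxide hydrolase (1.98 ± 0.23), and the glucuronosyltransferase Ugt2b1 (2.51 ± 0.33) rose with it. Aldh1a1, a retinal dehydrogenase, rose too (1.02 ± 0.31, adjusted p = 0.0239), a call that ended on leaving out array 1 or 3 of R1, or 2 or 3 of vehicle (highest adjusted p 0.108).

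Of the transporters of the list, Slco1a4, Abcc3 and Abcc2 rose, whereas the drug efflux pumps Abcb1a (0.04 ± 0.34, adjusted p = 0.976) and Abcb1b (1.11 ± 0.51, adjusted p = 0.193) were not called. Slco1a4, which takes up organic anions from blood, read 404, 121, 241 and 165 in vehicle and 2277, 1753, 1761 and 1151 with R1 (2.99 ± 0.27, adjusted p = 9.53e-12). Abcc3, which pumps conjugates back into blood, read 1.08, 6.33, 4.83 and 5.90 in vehicle and 55.6, 46.8, 52.98 and 66.2 with R1 (3.03 ± 0.33, adjusted p = 1.67e-09). Neither overlapped, and all vehicle arrays of Abcc3 were below the filter level. Abcc2, which pumps conjugates into bile, rose by less (1.72 ± 0.25, adjusted p = 9.07e-07). Cyp2c7 was the 1 fall of the list, from 4304, 5377, 4914 and 6196 to 1397, 1816, 1351 and 1569 (-1.76 ± 0.22, adjusted p = 2.57e-08). Against the study 3 vehicle 13 of the 20 genes were called higher and 3 lower (median 1.13).

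Glutathione-related genes rose in the same arrays. Of 15 tested glutathione transferases 9 rose and 0 fell (median 0.67). Gsta3, an alpha-class transferase, read 60.6, 40.4, 30.96 and 75.5 in vehicle and 1059.9, 1628, 1580.2 and 1427 with R1 (4.76 ± 0.40, adjusted p = 9.2e-13). The pi-class transferase Gstp1, scarce in normal rat hepatocytes, read 134, 156, 162 and 171 in vehicle and 1173, 1099, 1335 and 1533 with R1 (3.02 ± 0.25, adjusted p = 3.59e-13). Both were separated by a wide gap in every array. Gsta4 (1.79 ± 0.18), the microsomal Mgst2 (1.59 ± 0.17), Gstm2 (1.32 ± 0.21) and the abundant Gstm1 (1.04 ± 0.18) rose by less. Gsta1 (0.67 ± 0.19) and Gstm5 (1.29 ± 0.38) were called in 1 probe set of 3 and of 2. The call of Gsta1 ended on leaving out array 3 of vehicle (highest adjusted p 0.119) and against the study 3 vehicle (0.11 ± 0.18, adjusted p = 0.723), and that of Gstm5 on leaving out array 3 or 4 of R1, or 2 or 3 of vehicle (highest adjusted p 0.109).

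Ggt1, the gamma-glutamyl transferase that cleaves extracellular glutathione, read 2.37, 1.75, 2.40 and 1.03 in vehicle and 143, 56.2, 94.6 and 92.1 with R1 (4.32 ± 0.26, adjusted p = 5.15e-17). All vehicle arrays were below the filter level and all R1 arrays well above it, so the gene's size of change is uncertain and its separation is not. Ggt1, Gstp1 and Akr7a3, an aflatoxin aldehyde reductase (1.80 ± 0.32), were the 3 of 7 tested markers of altered rat hepatocytes to rise, and 0 fell. At 20 mg/kg/day Ggt1 read 44.1 to 106 and Gstp1 788 to 1335, and neither was called different from 100 mg/kg/day (0.41 ± 0.25, adjusted p = 0.559, and 0.39 ± 0.23, adjusted p = 0.549). After 24 h neither was called against its vehicle (-0.01 ± 0.30, adjusted p = 0.99, and 0.66 ± 0.28, adjusted p = 0.191), and the difference between times was called for both (4.33 ± 0.40, adjusted p = 1.45e-10, and 2.36 ± 0.37, adjusted p = 3.12e-05). The study 3 vehicle read 1.24 to 4.06 for Ggt1 and 108 to 138 for Gstp1, as low as that of study 2.

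Of 17 tested NRF2 targets 11 rose and 1 fell (median 1.12). Gpx2, a glutathione peroxidase mainly of gut, read 10.6, 9.03, 8.03 and 10.7 in vehicle and 160.3, 21.00, 142 and 84.5 with R1 (2.75 ± 0.41, adjusted p = 2.12e-06). Hmox1, heme oxygenase, read 101, 97.2, 91.3 and 82.1 in vehicle and 284, 141, 287 and 289 with R1 (1.35 ± 0.27, adjusted p = 0.00032). The groups did not overlap in either gene, but R1 replicate 2 was low in both. Tkt, transketolase (2.003 ± 0.23), Gsr, glutathione reductase (1.12 ± 0.21), and Gclm, the modifier subunit of glutathione synthesis (1.001 ± 0.25), rose by about 1 to 2 on the log2 scale. Nqo1, the quinone reductase often used to read NRF2, rose from 19.4, 122, 39.8 and 81.7 to 81.3, 348, 159.7 and 452 (1.94 ± 0.55, adjusted p = 0.0129) with overlap, a call that ended on leaving out array 2 or 4 of R1, or 1 of vehicle (highest adjusted p 0.103). Taldo1 (0.71 ± 0.20, adjusted p = 0.0125) was likewise lost on leaving out array 1 of R1, or 3 of vehicle (highest adjusted p 0.0745), with the replicate block, in a fit of study 2 alone and against the study 3 vehicle (0.44 ± 0.19, adjusted p = 0.0802). Gclc, the catalytic subunit, was not called (0.37 ± 0.22, adjusted p = 0.366). Cbr1, a carbonyl reductase, fell from 27.2, 35.9, 27.9 and 38.6 to 2.10, 4.59, 7.13 and 8.82 (-2.10 ± 0.44, adjusted p = 0.000638), in 1 of its 2 probe sets. All 4 R1 arrays of Cbr1 lay below the filter level, so the size of the fall is uncertain. Between 100 and 20 mg/kg/day 1 of the 17 genes was called, Hmox1, which was higher at 100 (1.26 ± 0.26, adjusted p = 0.000873).

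NRF2 binds antioxidant response elements, so the 250 bases before the start of the NRF2-list genes that rose were searched on both strands for the core TGACNNNGC. RefSeq promoters (build GRCr8) were at hand for 9 of the 11 genes, and 4 of these held the core: Gclm, Gpx2, Gstp1 and Me1. Of all 33469 RefSeq promoter windows of the same length, 10.1% held it. The windows of the 3 of these genes with the largest rises are shown to let the core be seen in its place, with the core in capitals. They are given 5′ to 3′ on the strand of the gene, and lie on the minus strand at chr1:210769706-210769955 (Gstp1), chr6:101230034-101230283 (Gpx2) and chr8:96540245-96540494 (Me1).
Gstp1: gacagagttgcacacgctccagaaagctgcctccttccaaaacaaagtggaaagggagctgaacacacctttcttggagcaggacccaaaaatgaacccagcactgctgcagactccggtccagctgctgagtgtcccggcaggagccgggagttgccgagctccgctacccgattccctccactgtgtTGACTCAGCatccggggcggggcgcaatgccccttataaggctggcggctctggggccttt
Gpx2: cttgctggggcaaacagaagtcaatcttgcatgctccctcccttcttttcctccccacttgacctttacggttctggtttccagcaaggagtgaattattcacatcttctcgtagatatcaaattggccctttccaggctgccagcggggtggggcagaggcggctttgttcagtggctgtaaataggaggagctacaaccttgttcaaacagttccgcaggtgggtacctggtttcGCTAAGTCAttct
Me1: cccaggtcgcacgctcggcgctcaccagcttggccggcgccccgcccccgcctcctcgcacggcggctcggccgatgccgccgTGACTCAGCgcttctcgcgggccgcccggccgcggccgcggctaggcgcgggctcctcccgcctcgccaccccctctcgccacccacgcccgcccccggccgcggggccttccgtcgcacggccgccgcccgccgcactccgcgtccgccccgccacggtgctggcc
The core begins 61 bases before the start in Gstp1, 13 in Gpx2, where it is read on the opposite strand, and 167 in Me1. The match is one of letters and no binding was measured. A core of the sterol response element chosen after the data were seen, TCACNCCAC, was in 0 of the 11 cholesterol genes that rose and had a promoter, and in 0.974% of all windows. That these letters are not in a window says nothing of binding elsewhere.

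**Figure D3:**
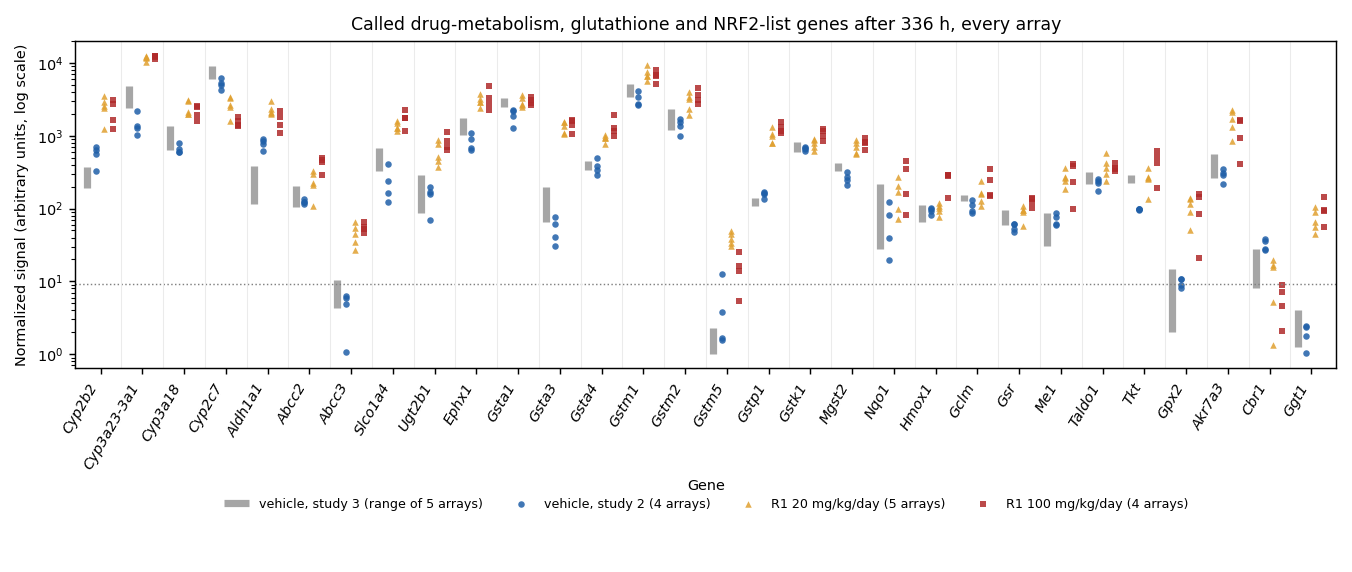
Normalized signal (log scale) of the called genes of the CAR and PXR, glutathione transferase, NRF2 and altered hepatocyte lists in every array of study 2 after 336 h, with circles for vehicle, triangles for R1 20 mg/kg/day, squares for R1 100 mg/kg/day, grey bars for the range of the study 3 vehicle and a dotted line at the filter level of 9.17. For Gsta3, Gstp1, Ggt1, Slco1a4 and Abcc3 the triangles and squares both lie above the circles, and the grey bars lie below both.

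Other cytochromes P450 moved in both directions: of 21 tested, 3 rose and 6 fell (median -0.15). Cyp17a1, the steroid 17-hydroxylase, read 108, 231, 252 and 147 in vehicle and 2.91, 20.1, 7.56 and 9.11 with R1 (-3.96 ± 0.43, adjusted p = 1.16e-09). The study 3 vehicle read 6.03 to 20.1, at the level of the R1 arrays, and Cyp17a1 was not called against it (-0.38 ± 0.41, adjusted p = 0.544). Cyp1a2, a main oxidase of aromatic amines, fell (-1.42 ± 0.28, adjusted p = 0.000234). The normally silent Cyp1a1 rose from 5.28, 2.75, 2.56 and 1.69 to 22.9, 7.05, 9.31 and 18.3 (1.46 ± 0.32, adjusted p = 0.000861). Its vehicle arrays and the R1 array at 7.05 lay below the filter level, so the size of this rise is uncertain. Of the groups compared here, only R1 at 100 mg/kg/day after 336 h reached that level (mean 14.4). The filter may thus have favoured a rise. Cyp2d3 (-1.44 ± 0.26, adjusted p = 5.66e-05) and Cyp2e1, the ethanol oxidase (-0.77 ± 0.19, adjusted p = 0.00414), fell, and Cyp2e1 was not called against the study 3 vehicle (-0.46 ± 0.18, adjusted p = 0.0573).

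Several sex-biased liver genes changed. In the adult rat, the pulsed growth hormone of males maintains male-predominant genes and represses female-predominant ones. Obp3, of the alpha-2u globulin family that male rats make in liver, read 1522, 1949, 868 and 1469 in vehicle and 182, 24.9, 56.4 and 51.3 with R1 (-4.45 ± 0.45, adjusted p = 1.52e-10). Cyp2c11, the main male P450, read 2924, 2009, 3412 and 2639 in vehicle and 191, 114, 547 and 344 with R1 (-3.40 ± 0.36, adjusted p = 7.36e-10). Every R1 array of both genes was below every vehicle array, and the study 3 vehicle read 1078 to 1786 for Obp3 and 2639 to 4953 for Cyp2c11, as high as that of study 2. The female P450 Cyp2c12 read 24.5, 86.2, 125 and 21.5 in vehicle and 355, 597, 377 and 279 with R1 (2.89 ± 0.73, adjusted p = 0.00488). Cyp2c12 did not overlap between groups, although the vehicle arrays differed among themselves by more than 5 times. Sult2a2, a sulfotransferase for steroids and bile acids, rose from 273, 722, 265 and 329.6 to 2009, 2790.3, 1684 and 1808 (2.48 ± 0.33, adjusted p = 1.77e-07), in 2 of its 3 probe sets and with signal that Sult2a genes can share.

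As lists, 3 of 12 male-predominant genes fell and 1 rose (median -0.17), and 4 of 9 female-predominant genes rose and 1 fell (median 0.46); with the replicate block 5 of the 12 fell. The members did not all move the same way. The male-predominant Cyp2c22 rose (1.40 ± 0.21, adjusted p = 1.99e-06) but was lower than in the study 3 vehicle (-0.56 ± 0.20, adjusted p = 0.0357), the male-predominant Hsd3b5 fell (-0.87 ± 0.28, adjusted p = 0.0356) with a call that ended on leaving out array 1 or 4 of R1, or 1, 3 or 4 of vehicle (highest adjusted p 0.142) and without the mean-variance trend, and the female-predominant Cyp2c7 fell. Obp3 and Cyp2c11 were lower at 100 than at 20 mg/kg/day (-4.04 ± 0.42, adjusted p = 1.12e-09, and -2.86 ± 0.34, adjusted p = 2.83e-08), and neither was called after 24 h (0.07 ± 0.52, and -0.26 ± 0.42).

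In the growth hormone and IGF axis 5 of 19 tested genes fell and 0 rose (median -0.17). Igf1, the hormone that the liver secretes in response to growth hormone, read 2621, 3078, 2253 and 2397 in vehicle and 1213, 1623, 1533 and 1225 with R1 (-0.89 ± 0.20, adjusted p = 0.0012). Ghr, the growth hormone receptor, read 1923, 1564, 2049 and 1931 in vehicle and 753, 971, 1447 and 995 with R1 (-0.87 ± 0.19, adjusted p = 0.0012). Neither overlapped, but 2 of 5 probe sets of Igf1 and 1 of 3 of Ghr were called, and Ghr was not called against the study 3 vehicle (-0.41 ± 0.18, adjusted p = 0.103). Igfbp3, the main carrier of IGF in plasma, read 168, 337, 240.1 and 194 in vehicle and 64.5, 50.8, 96.4 and 42.5 with R1 (-1.86 ± 0.26, adjusted p = 4.53e-07), and both of its probe sets were called. Igfals, the third part of the carrier complex, fell (-0.87 ± 0.25, adjusted p = 0.0142) in 1 of 3 probe sets, with overlap, and the call ended on leaving out array 1 of R1, or 2 or 3 of vehicle (highest adjusted p 0.167) and in a fit of study 2 alone. Insr, the insulin receptor, fell (-1.24 ± 0.32, adjusted p = 0.00692), with R1 replicate 1 at the vehicle level. That call ended with the replicate block and in a fit of study 2 alone, where 3 of the 19 genes were called lower.

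Some genes of glucose output fell. Of 23 tested glucose and glycogen genes 4 fell and 1 rose (median -0.20). Pck1, the rate-setting enzyme of gluconeogenesis, read 1244, 1775, 1848 and 2037 in vehicle and 314, 1191, 103 and 408 with R1 (-2.25 ± 0.43, adjusted p = 0.000156). The R1 arrays spread over more than 10 times and all lay below the vehicle arrays. Pc, pyruvate carboxylase, read 301, 316, 319.5 and 278 in vehicle and 98.1, 103, 56.9 and 116 with R1 (-1.71 ± 0.21, adjusted p = 3.6e-08). Fbp1, fructose bisphosphatase, fell by less (-1.06 ± 0.25, adjusted p = 0.00249). Of the glycogen genes, the synthase Gys2 fell (-1.19 ± 0.23, adjusted p = 0.000212) and the phosphorylase Pygl rose (0.90 ± 0.19, adjusted p = 0.000598), and neither was called against the study 3 vehicle (0.26 ± 0.22, adjusted p = 0.429, and -0.42 ± 0.18, adjusted p = 0.0827).

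Of 29 tested urea cycle and amino acid breakdown genes 8 fell and 2 rose (median -0.32). In the urea cycle, Asl, argininosuccinate lyase, fell from 1397, 1397, 1655 and 1958 to 334, 691, 404 and 593 (-1.70 ± 0.19, adjusted p = 1.78e-09), but the study 3 vehicle read 407 to 599 and Asl was not called against it (-0.02 ± 0.18, adjusted p = 0.942). Ass1, argininosuccinate synthase, fell by less (-0.71 ± 0.14, adjusted p = 0.000239) and was lower against that vehicle too (-1.05 ± 0.13, adjusted p = 6.61e-08). Agxt, which detoxifies glyoxylate, fell from 1229, 1279, 1254 and 1512 to 343, 579, 439 and 577 (-1.47 ± 0.21, adjusted p = 1.28e-06), and Hal, histidase, from 293, 457, 414 and 417 to 96.4, 151, 153 and 145 (-1.52 ± 0.21, adjusted p = 4.56e-07). Cps1, the entry enzyme of the cycle, overlapped (-0.72 ± 0.23, adjusted p = 0.035), and its call ended on leaving out array 1, 3 or 4 of R1, or 1, 2 or 3 of vehicle (highest adjusted p 0.179), without the trend, in a fit of study 2 alone and against the study 3 vehicle (-0.42 ± 0.22, adjusted p = 0.163).

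The 2 rises were Ddc and Tdo2, tryptophan dioxygenase (0.81 ± 0.21, adjusted p = 0.00619), whose groups overlapped and which was not called against the study 3 vehicle (0.12 ± 0.20, adjusted p = 0.727). Ddc, the decarboxylase that makes dopamine and serotonin, read 3.94, 4.39, 3.18 and 3.62 in vehicle and 69.2, 82.5, 92.04 and 138 with R1 (3.84 ± 0.22, adjusted p = 1.09e-17). The study 3 vehicle read 97.6 to 159, above the R1 arrays' mean, and the direction turned against it (-0.52 ± 0.21, adjusted p = 0.0681). The vehicle arrays of study 2 were thus the low ones for Ddc, and the 20 mg/kg/day arrays of that study read 46.2 to 67.6.

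**Figure D4:**
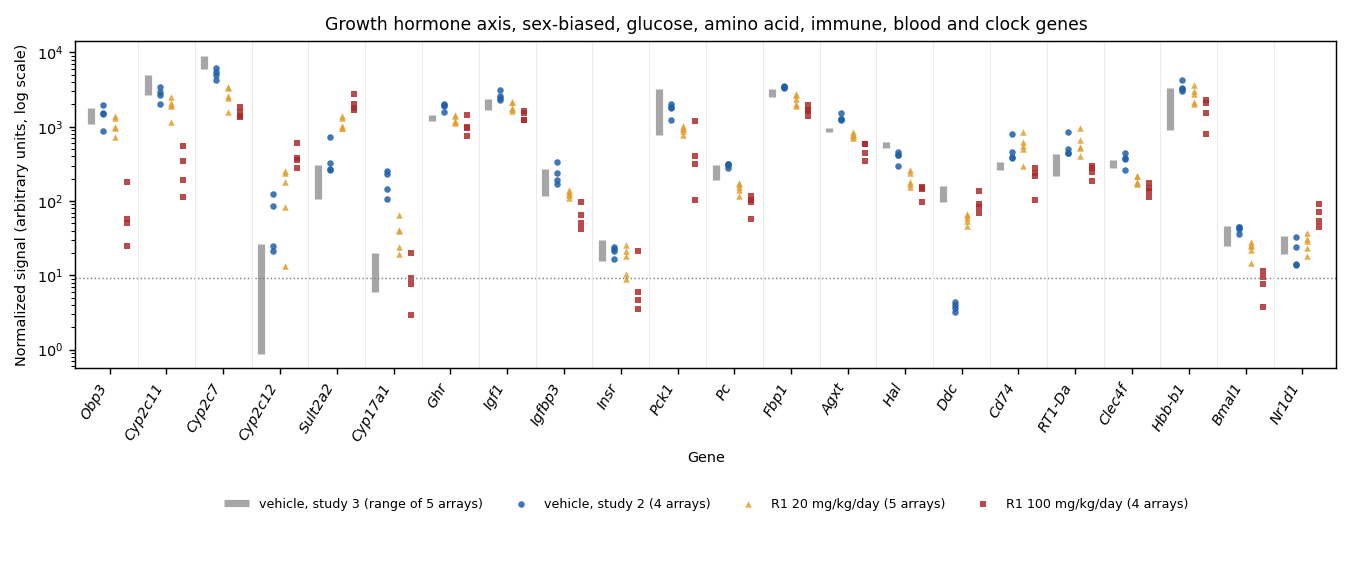
Normalized signal (log scale) of 22 genes of sex-biased, growth hormone, glucose, amino acid, immune, blood and clock function in every array of study 2 after 336 h, with circles for vehicle, triangles for R1 20 mg/kg/day, squares for R1 100 mg/kg/day, grey bars for the range of the study 3 vehicle and a dotted line at the filter level of 9.17. For Obp3 and Cyp2c11 the squares lie below circles, triangles and grey bars, and for Ddc the circles lie below all the others.

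Genes of antigen presentation fell in part. Of 22 tested interferon and antigen presentation genes 5 fell and 0 rose, with a median of -0.63, and 3 to 6 fell when 1 array was left out. Cd74, the chain that guides class II molecules, read 804, 394, 382 and 452 in vehicle and 235, 281, 215 and 103 with R1 (-1.29 ± 0.29, adjusted p = 0.00154). All 4 of its probe sets were called, and vehicle replicate 1 was the highest array. The class II chain RT1-Bb (-1.22 ± 0.25, adjusted p = 0.000568) fell too, in 1 of its 3 probe sets. The calls of RT1-Ba (-1.22 ± 0.34, adjusted p = 0.0113) ended on leaving out array 4 of R1, or 1 of vehicle (highest adjusted p 0.1), those of RT1-Da (-1.10 ± 0.28, adjusted p = 0.00511) on leaving out array 1 of vehicle (highest adjusted p 0.0503), and those of Irf7, an interferon regulator (-1.48 ± 0.39, adjusted p = 0.00628), on leaving out array 1 of R1 (highest adjusted p 0.0547). Against the study 3 vehicle 7 of the 22 genes were lower, but Cd74 (-0.59 ± 0.28, adjusted p = 0.12), RT1-Ba (-0.39 ± 0.32, adjusted p = 0.406) and RT1-Da (-0.47 ± 0.27, adjusted p = 0.204) were not called.

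Some markers of other cells were called, not all in the same direction. Of 5 tested Kupffer cell and macrophage markers 2 fell and 1 rose, with summed signal of 1083 to 1790 in vehicle and 819 to 1292 with R1. Clec4f, a lectin of Kupffer cells, fell from 445, 375, 263 and 365 to 135, 151, 114 and 175 (-1.31 ± 0.23, adjusted p = 3.57e-05) and was lower against the study 3 vehicle too (-1.12 ± 0.22, adjusted p = 0.000111). C1qb, a complement chain that macrophages make, fell (-0.81 ± 0.20, adjusted p = 0.00431) but was not called against the study 3 vehicle (-0.07 ± 0.19, adjusted p = 0.828), which was itself lower than that of study 2 (study 2 over study 3 0.74 ± 0.19, adjusted p = 0.00492). Cd14 rose with overlap (0.80 ± 0.24, adjusted p = 0.0207), a call that ended on leaving out array 4 of R1, or 2 or 3 of vehicle (highest adjusted p 0.158), with weighted arrays, in a fit of study 2 alone and against the study 3 vehicle (0.11 ± 0.23, adjusted p = 0.763). Of 5 blood markers 2 fell, the globins Hba-a3 (-1.50 ± 0.41, adjusted p = 0.00893) and Hbb-b1 (-1.15 ± 0.36, adjusted p = 0.0288), with a summed signal of 8688 to 11807 in vehicle and 3451 to 7614 with R1. The call of Hba-a3 ended on leaving out array 2 of R1, or 3 of vehicle (highest adjusted p 0.0775), and that of Hbb-b1 on leaving out array 1 or 2 of R1, or 1, 2 or 3 of vehicle (highest adjusted p 0.171), so that 0 to 3 blood markers were called when 1 array was left out. Against the study 3 vehicle neither globin was called (Hba-a3 -0.15 ± 0.38, adjusted p = 0.817, and Hbb-b1 0.05 ± 0.34, adjusted p = 0.93). In stellate cell and fibroblast markers 1 of 9 fell (594 to 882 summed in vehicle, 399 to 539.9 with R1), the receptor Pdgfra (-0.87 ± 0.24, adjusted p = 0.012). That call ended on leaving out array 4 of R1, or 2 of vehicle (highest adjusted p 0.0917), so that 0 to 1 of these markers fell when 1 array was left out, and 2 fell with the replicate block. In endothelial markers 1 of 7 fell (423 to 492 summed in vehicle, 327 to 383 with R1), Kdr, whose call (-0.91 ± 0.27, adjusted p = 0.0174) ended on leaving out array 1 of R1, or 2 or 4 of vehicle (highest adjusted p 0.101) and against the study 3 vehicle (-0.19 ± 0.25, adjusted p = 0.625). None of 8 T and NK cell markers, 3 neutrophil markers and 4 mast cell markers was called. Of 6 bile duct markers 1 rose, Epcam (1.64 ± 0.31, adjusted p = 0.000175). The part of blood and of these cells in the other falls was not tested.

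**Figure D5:**
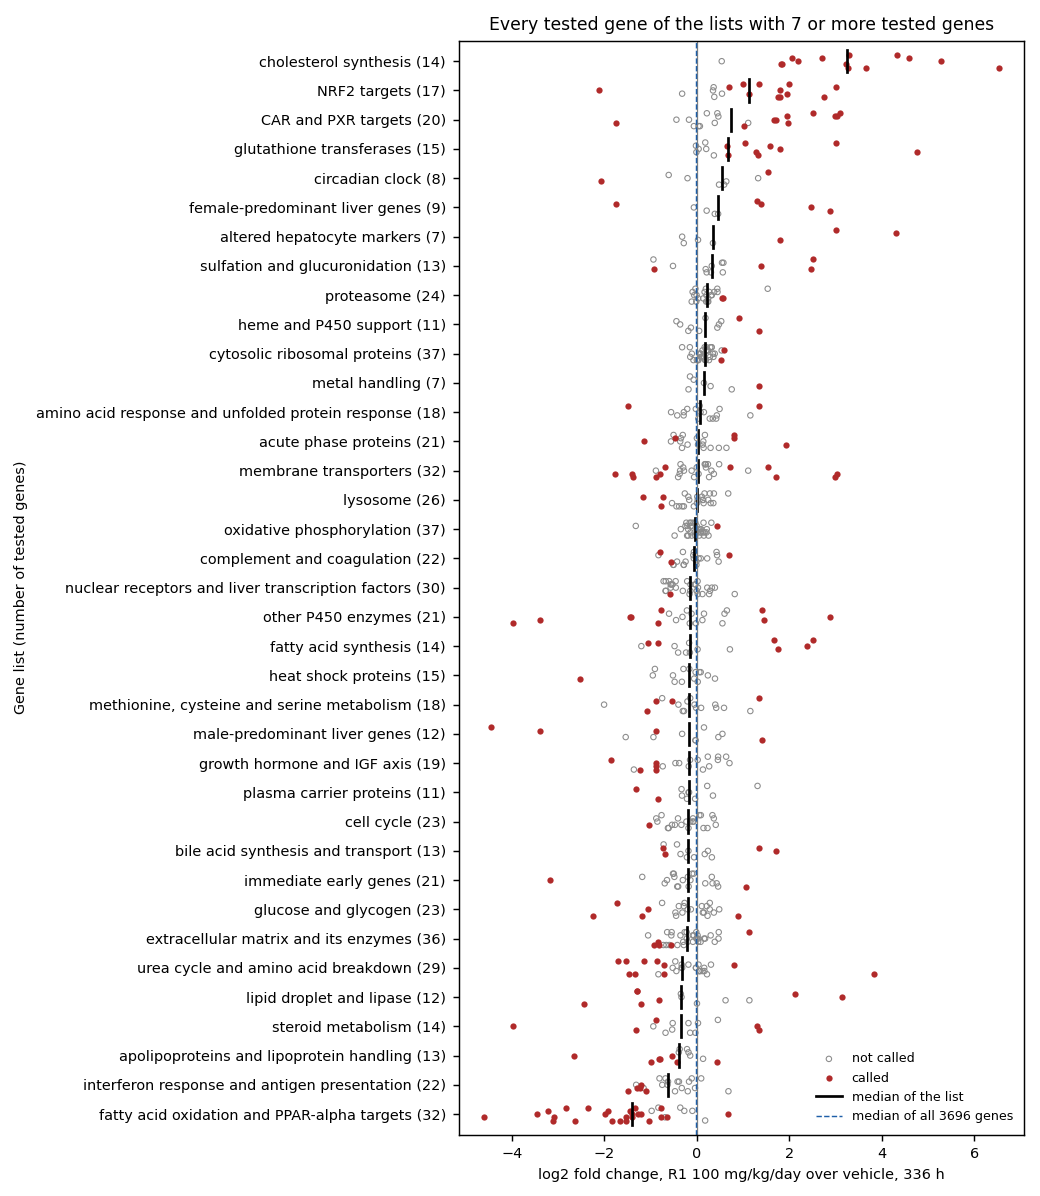
log2 fold change of every tested gene at 100 mg/kg/day of R1 over vehicle after 336 h, 1 line per gene list with 7 or more tested genes, ordered by the list's median (black bars), with called genes filled and the median of all 3696 genes as a dashed line. Cholesterol synthesis stands at the top with a median of 3.24 and fatty acid oxidation at the bottom with -1.40.

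The clock genes Bmal1 and Nr1d1, which oscillate in opposite phase in liver, were called in opposite directions. Bmal1 read 45.4, 36.1, 42.02 and 44.1 in vehicle and 9.59, 3.76, 11.4 and 7.66 with R1 (-2.08 ± 0.24, adjusted p = 6.2e-09). Nr1d1 read 23.8, 32.4, 13.6 and 14.1 in vehicle and 70.1, 44.99, 54.5 and 89.8 with R1 (1.54 ± 0.40, adjusted p = 0.00602). Neither overlapped between groups, and the study 3 vehicle read 24.7 to 46.4 for Bmal1 and 19.4 to 33.4 for Nr1d1. The other 6 tested clock genes were not called, and the hour of killing was not analysed here. The immediate early gene Egr1 read 1237, 1636, 1022 and 3160.4 in vehicle and 171, 414, 232 and 56.5 with R1 (-3.17 ± 0.66, adjusted p = 0.000577), in 3 of its 4 probe sets. The study 3 vehicle read 50.1 to 365, at the level of the R1 arrays (0.32 ± 0.63, adjusted p = 0.758), and Hspa1a, an inducible heat shock protein, stood likewise. It read 11.6, 71.98, 33.2 and 21.2 in vehicle and 1.04, 0.883, 2.04 and 9.12 with R1 (-2.52 ± 0.51, adjusted p = 0.000343), all R1 arrays below the filter level, and 0.899 to 1.62 in the study 3 vehicle (0.39 ± 0.48, adjusted p = 0.613).

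Genes of some further lists were called as well, where 4.95% of all genes were called higher and 5.01% lower. Of 32 membrane transporters 5 rose and 6 fell (median 0.02), and the rises included Slco1a4, Abcc3 and Abcc2. Among the falls were the monocarboxylate carrier Slc16a1 (-1.40 ± 0.22, adjusted p = 6.44e-06), the taurine carrier Slc6a6 (-1.78 ± 0.42, adjusted p = 0.00243) and the anion carrier Slc22a7 (-0.79 ± 0.18, adjusted p = 0.00163), all 3 lower against the study 3 vehicle too (-1.34 ± 0.21, -3.18 ± 0.40 and -0.74 ± 0.17). Of 13 sulfation and glucuronidation genes 3 rose and 1 fell (median 0.33). The rises were Sult2a2, Ugt2b1 and the sulfotransferase Sult2a6 (1.39 ± 0.32, adjusted p = 0.00156), and the fall was Papss2, which makes the sulfate donor (-0.91 ± 0.26, adjusted p = 0.0128), a call that ended on leaving out array 4 of R1, or 2 or 4 of vehicle (highest adjusted p 0.101). Of 36 extracellular matrix genes 4 fell and 1 rose (median -0.21), and 2 to 4 fell when 1 array was left out. The membrane protease Mmp14 (-0.92 ± 0.21, adjusted p = 0.00146) and the proteoglycan Bgn (-0.81 ± 0.21, adjusted p = 0.00521) fell, and the rise was the plasminogen activator Plat (1.14 ± 0.35, adjusted p = 0.0245), a call that ended on leaving out array 1 of R1, or 2 or 3 of vehicle (highest adjusted p 0.114) and against the study 3 vehicle (0.33 ± 0.33, adjusted p = 0.512). Of 26 lysosome genes 3 fell and 0 rose (median 0.01), with the protease Ctss, also made by macrophages, at -1.17 ± 0.24, adjusted p = 0.00045. Of 18 methionine, cysteine and serine genes 1 rose and 3 fell, of 22 complement and coagulation genes 1 rose and 2 fell, of 14 steroid metabolism genes 2 rose and 3 fell, and of 24 proteasome genes 2 rose and 0 fell. The complement and coagulation counts and the proteasome counts lie near the shares of all genes.

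In 3 of the larger lists few genes were called. Of 37 ribosomal protein genes 2 rose and 0 fell (median 0.17), of 37 oxidative phosphorylation genes 1 rose and 0 fell (median -0.03), and of 30 nuclear receptors and liver transcription factors 0 rose and 1 fell (median -0.15). These shares lie near or below the 4.95% and 5.01% of all genes. Of 21 acute phase proteins 3 rose and 2 fell (median 0.03), and 2 to 3 rose and 1 to 2 fell when 1 array was left out. Lcn2, a member that binds iron carriers of bacteria, rose from 19.8, 13.02, 18.3 and 15.2 to 106, 188, 43.2 and 27.1 (1.92 ± 0.42, adjusted p = 0.00105), and Itih3, a chain that binds hyaluronan, fell (-1.13 ± 0.16, adjusted p = 8.95e-07). Of 5 tested p53 targets 2 rose (0 to 3 when 1 array was left out), Mdm2 (0.96 ± 0.26, adjusted p = 0.00773) and Gdf15 (1.71 ± 0.46, adjusted p = 0.00805), and the call of Mdm2 ended on leaving out array 1 of R1, or 2 of vehicle (highest adjusted p 0.0523), that of Gdf15 on leaving out array 3 of R1, or 2 of vehicle (highest adjusted p 0.0987). All vehicle arrays of Gdf15 lay below the filter level (1.79 to 7.69). Among the groups compared here only R1 at 100 mg/kg/day after 336 h reached it (mean 32.4), so the filter may have favoured a rise. In the cell cycle list 1 of 23 genes fell, cyclin D1, Ccnd1 (-1.03 ± 0.26, adjusted p = 0.00493), which was not called with the replicate block, and Pcna, the replication clamp, was not called (-0.09 ± 0.39, adjusted p = 0.948). Cyp7a1, the rate-setting enzyme of bile acid synthesis, was not called (0.17 ± 0.67, adjusted p = 0.935).

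Set against 20 mg/kg/day in the same study, 100 mg/kg/day differed in 142 of 3696 genes (3.84%; 4.07% of probe sets), 75 higher and 67 lower. Of these, 109 were also called in the same direction against vehicle, a count that the shared R1 arrays raise. Of the lists, cholesterol synthesis and fatty acid oxidation held the most genes called between the doses, while of the 15 glutathione transferases 0 were higher and 1 lower, and of the 20 CAR and PXR targets 1 was higher and 1 lower. For Gsta3 the difference was 0.11 ± 0.38, and for Slco1a4 0.32 ± 0.26, neither of them called. Cyp3a23-3a1 lay at the upper end of the shared scale at both doses (10258 to 12597 at 20 and 11270.4 to 12597 at 100 mg/kg/day), where a difference could hardly show. A difference that was not called does not show that the doses act alike. Against the effect after 24 h, that after 336 h differed in 187 genes (5.06%; 5.3% of probe sets), 95 higher and 92 lower. Glutathione transferases were greater at 336 h in 5 of 15 genes, among them Gsta3 (3.46 ± 0.61, adjusted p = 0.000171) and Gsta4 (1.89 ± 0.28, adjusted p = 9.52e-06).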

How the data were processed

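Gene expression was measured in 44 liver arrays of the series. The deposited values are intensities, made with MAS5 (version not given) per the submitters' processing notes. In the file the sorted values of all 44 arrays were identical, so the values had been quantile normalized before they were deposited. The table holds 8799 probe sets. After 59 controls were left out, 7006 had 1 gene symbol, 308 several and 1426 none in the platform annotation, and 6985 of the 7006 matched RefSeq by Entrez identifier.

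Signals were turned into log2(signal + 2.888), the offset being the 20th percentile of all values. The 6361 probe sets with a group mean of 9.17 or more (the 40th percentile) in some group were tested with limma 3.58.1 in R 4.3.3, in 1 fit over all 44 arrays and 11 groups with a mean-variance trend and 33 residual degrees of freedom. P-values were adjusted within each comparison by Benjamini-Hochberg and called under 0.05. Where several probe sets share a gene, the brightest on average stands for it. Samples were grouped by their labels. The fit was tested on simulated data. Python 3.11.15, pandas 2.3.3 and numpy 2.4.6 were used for tables and matplotlib 3.10.9 for plots.

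The members and lists were chosen with earlier results of these data known. Genes were named by a rule: up to 20 rises and 20 falls of the largest size without overlap, up to 4 called members per list, 24 liver genes, and up to 8 each way between doses and between times, 142 in all. Other list members in the text were chosen after their values were seen, and 2 of the 24 liver genes are not analysed here. Alternatives changed the offset, filter, scaling, variance model, array weights, probe set choice, replicate block and arrays included. Leaving out 1 array in the 24 h comparison was added after the data were seen. The number of arrays limits precision, since no counts lie behind an intensity.

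Replicate numbers were checked as pairs: vehicle and R1 arrays of the same number had residual correlations of 0.055, 0.115, 0.055 and 0.092, not all over 0.1, so the numbers were not taken to pair the samples.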

Additional observations from a re-analysis of the deposited data

Results flagged for a closer look

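Among 142 named genes, 16 of 284 groups of 4 arrays held 1 array far from the other 3, where chance gives about 1 in 20 groups. Most of these arrays were low ones of the R1 group. R1 replicate 1 was low for Cyp1a2 (383, against 648 to 719.6 in the other 3), for the amino acid enzyme Hal (96.4, against 145 to 153), for the endothelial receptor Kdr (15.2, against 24.4 to 26.8) and for the class II chain RT1-Bb (52.98, against 95.4 to 97.8). It was high for the sulfotransferase Sult2a6 (4953, against 3827 to 3902) and for the plasminogen activator Plat (27.3, against 14.7 to 16.4). R1 replicate 2 was low for Hmox1 (141, against 284 to 289), Mvd (64.7, against 180.4 to 222) and Mdm2 (35.5, against 86.4 to 101). R1 replicate 3 was low for Itih3 (861, against 1166 to 1241), and replicate 4 for Pex11a (6.64, against 18.2 to 21.4).

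In the vehicle group, replicate 4 was low for the carboxylesterase Ces2e (3.27, against 148 to 228), whose rise (3.02 ± 0.98) ended on leaving out array 2, 3 or 4 of R1, or 4 of vehicle (highest adjusted p 0.304) and against the study 3 vehicle (0.51 ± 0.93, adjusted p = 0.74). Replicate 2 was low for Gdf15 (1.79, against 7.13 to 7.69) and for Pemt (608, against 682 to 688). Replicate 1 was low for Gys2 (174, against 207 to 208) and for Serpind1 (1501, against 1709.7 to 1730.4).

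The effect of R1 at 100 mg/kg/day differed between 336 h and 24 h in 57 of the 142 named genes by the test of the difference. Over all genes the count was 187 of 3696 (5.06%). Some of the 142 genes were named by this same test, so their higher share was set by the choice and is not a result. The 8 largest differences each way are given here. Time and study cannot be told apart in them. Lower at 336 h were Acot2 (difference -6.40, from 2.95 at 24 h to -3.45 at 336 h), Acot1 (-4.59, from 0.00 to -4.59), Obp3 (-4.53, from 0.08 to -4.45), Eci1 (-4.41, from 1.31 to -3.10) and Ech1 (-3.82, from 0.99 to -2.83). So were Cyp4a1 (-3.51, from 0.29 to -3.22), Hacl1 (-3.48, from 1.24 to -2.24) and Egr1 (-3.37, from 0.21 to -3.17). The difference for Egr1 was lost on leaving out array 2 or 3 of R1 at 24 h, or 1 or 2 of vehicle at 24 h, or 1 or 4 of R1, or 2 or 4 of vehicle (highest adjusted p 0.188). For Acot1 both 24 h groups lay below the filter level (0.359 to 4.90 in vehicle and 0.640 to 3.27 with R1). No fall could show there at that time. The 24 h vehicle of Acot2 read 0.923 to 29.2, on both sides of the filter level, so the size of its difference is uncertain. Higher at 336 h were Ddc (4.74, from -0.90 to 3.84), Ggt1 (4.33, from -0.01 to 4.32), Fabp4 (3.72, from -0.58 to 3.14), Gsta3 (3.46, from 1.30 to 4.76) and Tsx (3.21, from -1.09 to 2.12). Fabp5 (2.70, from -0.58 to 2.12) and Sri (2.52, from 0.10 to 2.62) were higher too. Mean Ddc signal with R1 was 83.9 at 24 h and 95.5 at 336 h. Its vehicle mean was 158.7 in study 1 and 3.78 in study 2, so this difference lies mostly between the vehicles. For Tsc22d1 (2.64) the change was the one at 24 h (-3.07), and at 336 h it was not called (-0.42); its difference was lost on leaving out array 1 of vehicle at 24 h (highest adjusted p 0.0594).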

How the results depend on the processing

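The 656 probe sets called against vehicle became 587 to 700 under other offsets, filters, scalings, variance models, array weights and a fit of the study alone, 546 to 662 when 1 array was left out, and 372 of 3696 with 1 probe set per gene in the fit. With the replicate block 633 were called, 308 of them higher. Against 20 mg/kg/day the 259 calls became 139 with 1 probe set per gene, 161 with the replicate block and 198 to 257 when 1 array was left out. For the difference between times the 337 calls became 183 with 1 probe set per gene and 237 to 371 when 1 array was left out. The block rests on numbers that were not taken to pair the samples, although each vehicle array correlated best with the R1 array of its own number. Of the 142 named genes, calls were lost for 35 when 1 array was left out, 15 in a fit of the study alone, 9 with the block, 7 without a trend, 3 with no filter and 1 with weighted arrays. None was lost under either offset, the stricter filter (138 genes), centring, cyclic loess or 1 probe set per gene. The vehicle of study 3, a comparison chosen after the data were seen, gave 1582 calls. Against it 36 of the 136 named genes that had been called lost their call, 24 with their direction kept and 12 with it turned, and 4 were called the other way. The 16 that turned were Abcb4 0.25, Acly -0.0098, Acot1 0.050, Acot2 0.32, Akr1d1 -0.13, Apoc4 0.034, Cpt1a 0.65, Cyb5r3 -0.71, Cyp2c22 -0.56, Ddc -0.52, Ech1 1.17, Eci1 0.49, Egr1 0.32, Gys2 0.26, Hbb-b1 0.055 and Hspa1a 0.39 (log2 fold changes). The cause was not tested. Values below about the filter level make the size of a fold change uncertain, and its direction too where both groups lie there.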

Other observations

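Some of the genes with the largest changes belong to none of the groups described. The probe set annotated as Ighvl1, an immunoglobulin heavy chain name, read 16.2, 18.6, 15.5 and 19.4 in vehicle and 923, 80.3, 427 and 309 with R1 (3.98 ± 0.51, adjusted p = 8.34e-08 by limma). Both of its probe sets were called, the vehicle arrays were even, and the R1 arrays differed by more than 10 times. It was higher at 100 than at 20 mg/kg/day (2.69 ± 0.49), where it read 27.97 to 92.2, and the study 3 vehicle read 16.4 to 23.6. The annotation of this probe set was not checked. The 1 tested B lymphocyte marker was not called, but it was dim (9.79 to 16.0 in vehicle and 2.72 to 23.7 with R1).

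Defb1, an antimicrobial defensin of epithelia, read 12.2, 18.5, 24.1 and 18.2 in vehicle and 310.0, 44.4, 148 and 104 with R1 (2.59 ± 0.44, adjusted p = 2.76e-05), with R1 replicate 1 the highest and replicate 2 the lowest, as for Ighvl1. Sri, sorcin, a calcium-binding protein, read 36.6, 39.98, 25.1 and 33.1 and then 349, 262, 176 and 142 (2.62 ± 0.24, adjusted p = 1.13e-11), and the 20 mg/kg/day arrays lay between at 63.9 to 98.7. In steroid handling, Serpina6, the plasma carrier of corticosterone, fell from 1512, 1704, 1474 and 1793 to 708, 1016, 665 and 362 (-1.32 ± 0.25, adjusted p = 0.000141), and the study 3 vehicle read 1643 to 1898. Akr1d1, the steroid 5-beta-reductase, rose from 428, 505, 333 and 614 to 1324, 1690.2, 733 and 1116 (1.34 ± 0.26, adjusted p = 0.000234), but the study 3 vehicle read 894 to 1968, at the level of the R1 arrays (-0.13 ± 0.25, adjusted p = 0.753).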
